A study of Mus musculus with 6 samples.

Results

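Collagens are triple-helical proteins of the extracellular matrix, and their genes were followed here in the mouse forelimb bud. The members are all genes on the array whose single annotated symbol has the form of Col1a1 (Col, a digit, then an a), with Col2a1 left out. The rule reads names only and no measured value. It found 41 genes, on 81 probe sets, of 18194 genes on the array. Col6a6 and Col28a1 had no probe set with that symbol alone and were not analysed here.

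The RNA came from CD1 embryos at E10.5. Their forelimb buds were split along the proximal to distal axis, and 6 Affymetrix arrays hold 1 array for each of 2 parts in each of 3 conditions. The control carries the genotype label Ring1A-/- although its description calls it wild type. The genotype label of the dKO reads Prx1-Cre; Ring1A-/-; Ring1Bfl/fl. Control and dKO thus share the Ring1A deletion and by label differ in Ring1B and the Cre transgene. Prx1-Cre acts in limb mesenchyme, and RING1A and RING1B are the ubiquitin ligases of Polycomb repressive complex 1. The RA arrays are from embryos labelled WT, exposed to all-trans retinoic acid (RA) at E10.25 by a maternal oral dose of 100 mg/kg. RA exposure and Ring1A genotype therefore cannot be told apart in a comparison of RA with control. The sources used here do not say how many buds were pooled for an array.

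Collagens fall into classes by the structure they build. Fibril-forming types such as I, III and V assemble into banded fibrils, and fibril-associated types bind to the surface of those fibrils. Type IV chains form the network of basement membranes, which in the limb bud underlie the ectoderm and surround vessels, and type VI forms beaded filaments. Transmembrane collagens are anchored in the cell membrane, and multiplexins carry an interrupted helix and long sugar chains beside basement membranes. Each chain is hydroxylated and folded in the endoplasmic reticulum, trimmed outside the cell by proteases and cross-linked by lysyl oxidases.

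The deposited values are MAS5 signals on a linear scale, and 1 probe set stands for each gene, the one with the highest mean log2 signal. The median signal of an array, called its floor, was 59.5 to 76.1, and signals under it were set to it before log2 differences were taken. Each group has 1 array, so a difference between 2 arrays has no replicate check and no p-value. "Higher" and "lower" are used for such differences. A limma model with a term for condition and another for part took in 12148 genes, those with a signal over the floor on 1 or more arrays. It has 2 residual degrees of freedom and reads how alike an effect is between pairs of arrays. "Rose" and "fell" are used only for genes past an adjusted p of 0.05 in it. In whole tissue, fewer cells of a type and less RNA per cell cannot be told apart.

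The arrays differed in ways the groups do not name. The RA pair had Xist signals of 12.9 and 29.5 against 3017 to 3688 on the other 4, and Eif2s3y signals of 2783 and 3064 against 4.25 to 12.3. Their spike-in control BioB read 84.4 and 103 against 1105 to 1223. The proximal RA array correlated least with the others, at r = 0.931 to 0.945 over genes on the log2 scale, and had the highest 3' to 5' signal ratio for GAPDH, 1.60 against 1.28 to 1.39. The part of these differences in the RA results was not tested. Ring1 signals were 402 to 968 on the arrays labelled Ring1A-/- and 245 and 420 on those labelled WT. Rnf2, which encodes RING1B, read 1887 and 2147 in the dKO and 2042 and 2070 in the control. The sources used here do not say where these probes lie relative to the deleted parts, so these signals are no check of the labels. All 8 limb mesenchyme markers were above the floor on all 6 arrays.

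Of the 41 collagen genes, 28 passed the floor on at least 1 array and 21 on all 6. Fibril-forming genes made up 8 of the 28 (Col1a1, Col1a2, Col3a1, Col5a1, Col5a2, Col11a1, Col24a1 and Col27a1), out of 10 on the array. The basement membrane class had 4 of 6 (Col4a1, Col4a2, Col4a5 and Col4a6) and the beaded filament class 3 of 5 (Col6a1, Col6a2 and Col6a3). Fibril-associated genes had 5 of 9 (Col9a1, Col9a3, Col14a1, Col16a1 and Col22a1). All 4 transmembrane genes (Col13a1, Col17a1, Col23a1 and Col25a1), both multiplexins (Col15a1 and Col18a1), the anchoring fibril gene Col7a1 and Col26a1 were also above the floor on an array. The other 13 stayed below the floor on every array, with no signal over 48.3. They are Col5a3, Col11a2, Col4a3, Col4a4, Col6a4, Col6a5, Col9a2, Col12a1, Col19a1, Col20a1 and all 3 genes of the hexagonal network class, Col8a1, Col8a2 and Col10a1. A signal below the floor on these arrays does not show that a gene is silent.

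**Figure D1:**
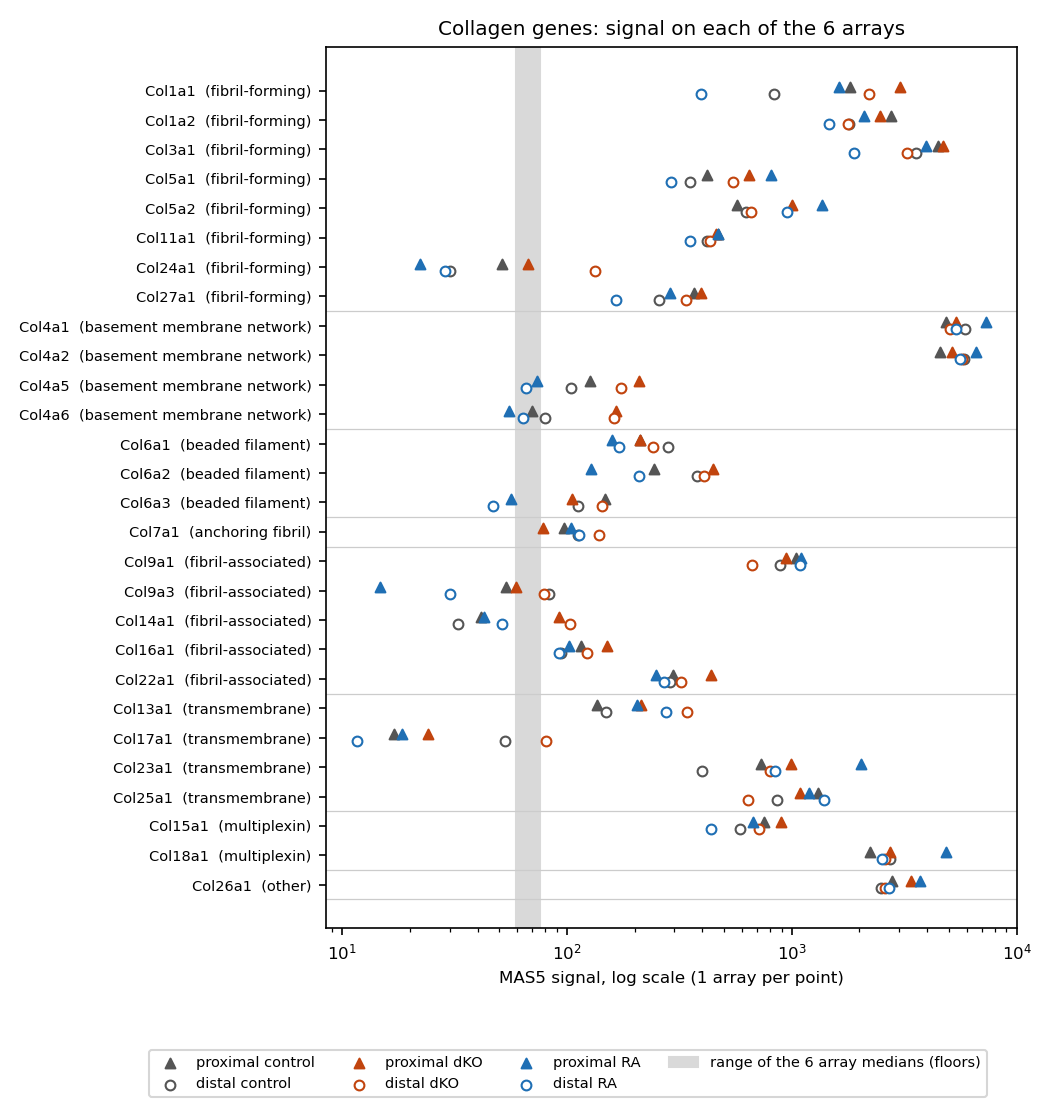
Signals of the 28 collagen genes that passed the floor on 1 or more arrays, in rows by class, with the MAS5 signal on a log axis and 1 point for each of the 6 arrays. Col4a1 reaches 7308 and Col4a2 6596 on the proximal RA array. Col9a3, Col14a1, Col17a1 and Col24a1 lie near or below the floors of 59.5 to 76.1 on most arrays. On the distal dKO array Col24a1 reaches 133 and Col14a1 104. Signals of different genes come from different probe sets and set no order between them.

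Proximal and distal parts were compared within each condition to ask which collagen genes differ along the axis of the bud. In the control, Col1a1 was 2-fold or more higher proximally, 1 of 25 members that could be compared, and none was as much lower. Over all genes compared, 1.35% were as much higher and 1.4% as much lower. In the dKO none of 28 members passed 2-fold in either direction, against 0.515% and 0.721% of all genes. In the RA pair 4 of 22 were higher, Col1a1, Col3a1, Col5a1 and Col23a1, and none was lower, against 4.4% and 6.16% of all genes. The limma model called no collagen gene for position, and it called 0% of all genes in each direction; at an unadjusted p under 0.05, 7 members were higher proximally and 0 distally, against 4.87% and 4.64% of all genes. Without the proximal RA array limma called 4 of 28 members higher proximally (Col1a1, Col1a2, Col3a1 and Col25a1) and none lower, against 1.35% and 1.48% of all genes in that fit.

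Col1a1 encodes the major chain of type I collagen, the main fibril of skin, tendon and bone. Its signals were 1812 proximally and 829 distally in the control, 3018 and 2202 in the dKO, and 1622 and 395 in the RA pair. The proximal array was the higher of each pair, and the distal RA array was the lowest of the 6. The log2 differences between parts were 1.13 in the control, 0.45 in the dKO and 2.04 with RA. A separate probe set of Col1a1 gave 1.16, 0.88 and 2.76. In the limma fit the position effect of Col1a1 was 1.21 (SE 0.28, adjusted p = 0.23).

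Col1a2, the partner chain of type I collagen, was also higher proximally in each pair, with log2 differences of 0.61, 0.47 and 0.51. Col3a1, the fibrillar collagen of elastic and vascular tissue, read 4452 and 3558 in the control, 4684 and 3239 in the dKO and 3973 and 1892 in the RA pair. The distal RA array was the lowest for Col3a1 and the other 5 lay between 3239 and 4684. The differences between parts were 0.32, 0.53 and 1.07, and a separate probe set gave 0.57, 0.43 and 0.40. For Col3a1 the 2-fold mark in the RA pair was thus reached by 1 of its 2 probe sets.

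Col23a1, a transmembrane collagen whose ectodomain can be shed, read 731 and 400.4 in the control, 995 and 799 in the dKO and 2039.7 and 844 in the RA pair. The proximal array was the higher of each pair, by 0.87, 0.32 and 1.27 on the log2 scale. The 2 other probe sets of Col23a1 differed between parts by 0.98 and 1.01 in the control, 0.73 and 0.37 in the dKO, and 0.73 and 1.02 with RA. Col5a1, a chain of type V collagen, which sets the width of fibrils, differed by 0.26, 0.25 and 1.48.

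Over the 21 members above the floor on all arrays, 11 were higher proximally in all 3 pairs: Col1a1, Col1a2, Col3a1, Col5a1, Col9a1, Col11a1, Col15a1, Col16a1, Col23a1, Col26a1 and Col27a1. Of all genes above the floor on all arrays, 19.5% did so. Col6a1, Col7a1 and Col13a1 were lower proximally in all 3, as were 16.4% of genes. By separate probe sets Col11a1 turned sign in the RA pair (-1.09) and Col27a1 in the dKO pair (-0.29). The same 11 were higher when each array was divided by its median or quantile normalized, while Col13a1 alone remained lower under both. The median difference over these members was 0.17 in the control, 0.30 in the dKO and 0.45 with RA, beside -0.00, 0.01 and 0.06 over the 10208 genes above the floor on all arrays.

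In the fibril-associated class Col9a1, a chain of the type IX collagen of cartilage and eye, differed between parts by 0.23, 0.50 and 0.01. Col25a1, a transmembrane collagen that acts in muscle innervation, read 1309 and 862 in the control, 1092 and 641 in the dKO and 1197 and 1393 with RA. It was higher proximally in the control and dKO, by 0.60 and 0.77, and differed by -0.22 in the RA pair. Col26a1 was higher proximally by 0.17, 0.38 and 0.46.

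Basement membrane genes had no single direction. Col4a1 read 4867 and 5916 in the control, 5359 and 5059 in the dKO and 7308 and 5355 with RA, differences of -0.28, 0.08 and 0.45. Col4a2, which pairs with Col4a1 in the same trimer, differed by -0.35, -0.14 and 0.24. Col18a1, whose tail is the source of endostatin, differed by -0.29, 0.07 and 0.95. By these probe sets the proximal array was the lower in the control and the higher with RA for all 3 genes, but a separate Col4a1 probe set gave -0.35, -0.30 and -0.06.

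No marker of another cell type passed limma for position, where the model called 0% of all genes in each direction. Summed signals of the lists nonetheless differed between parts, and single markers of a list can go the other way. The summed signal of 12 surface ectoderm markers was 10984 to 13728 on the proximal and 15809 to 21300 on the distal arrays, and all 12 were above the floor on all arrays. The 10 endothelial markers summed to 3749 to 5305 proximally and 2715 to 3801 distally. The somite and body wall markers, 7 genes of which Uncx was below the floor on all arrays, summed to 3168 to 6134 proximally and 1518 to 2658 distally. The 6 muscle precursor markers, with Myod1 below the floor throughout, summed to 4000 to 5686 and 855 to 2464. Their part in the collagen differences was not tested.

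**Figure D2:**
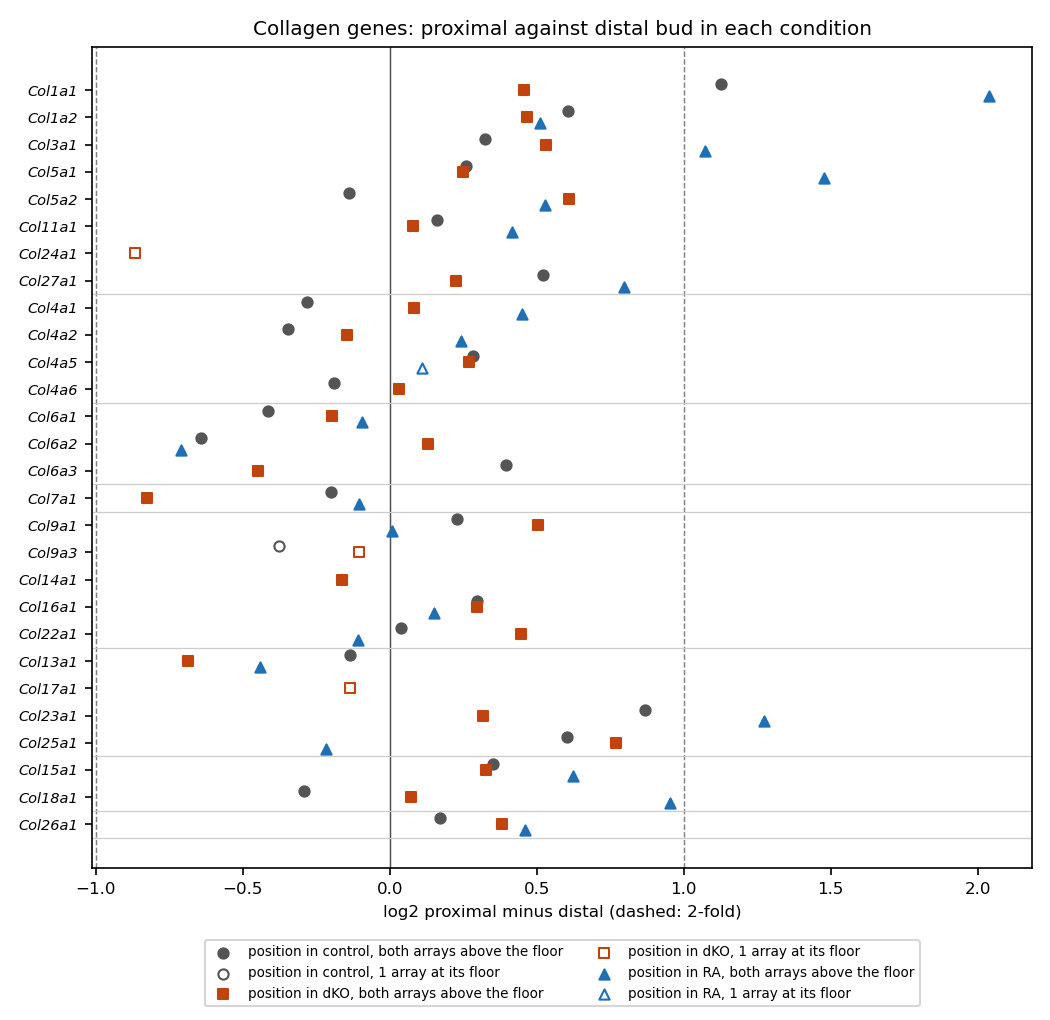
Log2 difference of the proximal minus the distal array for each collagen gene in the control, dKO and RA pairs, with dashed lines at 2-fold and open symbols where 1 array is at its floor. Col1a1 lies right of 0 in all 3 pairs, at 1.13, 0.45 and 2.04, and no gene passes 2-fold in the dKO pair.

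The dKO was compared with the control in each part to ask which collagen genes change when Ring1B is deleted on top of Ring1A. Col4a6 rose, and it was the only one of 28 members past the limma threshold; none fell. The model called 2.21% of all genes as risen and 0.115% as fallen. Fitted without the proximal RA array, it called 6 of 28 members as higher (Col1a1, Col4a5, Col4a6, Col5a1, Col13a1 and Col23a1), and none as lower, against 9.08% and 1.4% of all genes in that fit. Col4a6 was also the only member of 25 at 2-fold in the proximal part, where 4.07% of all genes were as much higher. In the distal part Col1a1, Col4a6, Col13a1 and Col24a1 passed 2-fold, 4 of 28, against 5.32% of all genes. Col24a1 entered that comparison only through the distal dKO array, where it was high. No member was 2-fold lower in either part, beside 0.363% (proximal) and 0.524% (distal) of all genes.

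Sequence upstream of the start is shown for the members that passed or neared 2-fold in the distal dKO and have a promoter entry, together with Col4a5, the neighbour of Col4a6, because Polycomb complexes are known to sit at CpG-rich promoters in mammals. Each run is the 250 bases before the start, 5' to 3' on the gene's strand, from RefSeq's GRCm38.p6, with every CG in capitals. No binding was measured in these arrays, and the runs describe the genes only.
Col4a6 (chrX:141474077-141474326, minus strand): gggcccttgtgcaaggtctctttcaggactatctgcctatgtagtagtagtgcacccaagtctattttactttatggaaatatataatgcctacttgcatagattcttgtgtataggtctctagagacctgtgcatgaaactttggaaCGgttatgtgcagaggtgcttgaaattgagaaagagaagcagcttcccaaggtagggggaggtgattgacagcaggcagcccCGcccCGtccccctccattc
Col4a5 (chrX:141475169-141475418, plus strand): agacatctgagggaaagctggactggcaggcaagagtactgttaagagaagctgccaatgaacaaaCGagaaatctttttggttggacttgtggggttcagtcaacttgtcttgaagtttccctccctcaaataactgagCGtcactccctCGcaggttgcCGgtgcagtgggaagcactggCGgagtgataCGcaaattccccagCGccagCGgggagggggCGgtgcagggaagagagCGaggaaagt
Col13a1 (chr10:61979109-61979358, minus strand): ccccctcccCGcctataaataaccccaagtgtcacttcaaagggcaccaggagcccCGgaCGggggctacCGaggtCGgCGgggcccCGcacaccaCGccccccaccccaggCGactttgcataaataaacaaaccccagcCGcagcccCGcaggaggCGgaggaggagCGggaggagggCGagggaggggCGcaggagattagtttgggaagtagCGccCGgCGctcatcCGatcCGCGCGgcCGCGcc
Col23a1 (chr11:51289670-51289919, plus strand): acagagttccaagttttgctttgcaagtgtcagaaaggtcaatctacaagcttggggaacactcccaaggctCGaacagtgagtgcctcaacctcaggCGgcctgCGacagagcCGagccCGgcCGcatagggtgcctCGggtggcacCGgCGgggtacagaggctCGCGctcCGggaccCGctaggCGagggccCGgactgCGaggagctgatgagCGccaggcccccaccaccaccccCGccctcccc
Col24a1 (chr3:145292222-145292471, plus strand): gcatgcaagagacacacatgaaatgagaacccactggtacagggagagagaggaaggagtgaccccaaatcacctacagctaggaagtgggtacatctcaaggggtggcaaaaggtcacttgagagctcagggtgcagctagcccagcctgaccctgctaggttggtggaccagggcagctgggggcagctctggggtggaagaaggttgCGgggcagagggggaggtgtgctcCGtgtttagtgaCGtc

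These runs hold 3 CG in Col4a6, 10 in Col4a5, 24 in Col13a1, 18 in Col23a1 and 3 in Col24a1. In the whole entry of 300 bases, from 250 before to 50 after the start, 33 members with an entry had a median of 12 CG and a range of 0 to 37. For Col9a1, Col6a2 and Col18a1, which have several entries, the entry with the most CG was used. The median over 32851 promoters, with every entry counted, was 7. The members above 2-fold therefore had 29 CG (Col13a1), 6 (Col24a1) and 3 (Col4a6), above, near and below that median. Searching both strands, GGGCGG was in 21 of 33 members and 35.7% of all promoters, CCAAT in 13 and 37.4%, and TATAAA in 5 and 13.6%. Each of GGGCGG's matches also contributes a CG. Members without an entry are Col1a1, Col4a3, Col5a2, Col9a3, Col12a1, Col14a1, Col22a1 and Col26a1.

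Col4a6 encodes a type IV chain found in basement membranes of epithelia and smooth muscle. Its signals were 69.7 and 79.5 in the proximal and distal control, 165 and 162 in the dKO and 55.4 and 63.6 with RA. Both dKO arrays stood above the other 4, and both RA arrays were below their floors. The dKO was higher by 1.24 proximally and 1.02 distally, and limma gave 1.13 (SE 0.18, adjusted p = 0.0307, Benjamini-Hochberg over all genes). Over 9 alternative settings and left-out arrays the adjusted p of Col4a6 ran from 2.22e-06 to 0.21, and 5 of them lost the call; the lowest came from a fit that kept genes at the floor on every array. A separate Col4a6 probe set was below the floor on all 6 arrays.

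Col4a5 lies beside Col4a6 on the X chromosome, the 2 genes being transcribed in opposite directions from neighbouring starts, and its chain joins that of Col4a6 in a trimer. Col4a5 read 126 and 104 in the control, 209 and 174 in the dKO and 73.6 and 65.3 with RA. It was higher in the dKO by 0.73 and 0.74, and limma gave 0.73 (SE 0.19, adjusted p = 0.147), so it did not pass. A separate Col4a5 probe set was below the floor on the control and dKO arrays and could not be compared. The other chains of the class, Col4a1 and Col4a2, differed from control by 0.14 and 0.18 proximally and by -0.23 and -0.02 distally.

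Col1a1 in the dKO was 0.74 higher proximally and 1.41 higher distally, and its separate probe set gave 1.08 and 1.36. By the probe set used, both dKO arrays had the highest Col1a1 signals of the 6. By the separate probe set the proximal RA array, at 767, lay above the distal dKO array, at 644. The partner chain Col1a2 differed by -0.16 and -0.02, and Col3a1 by 0.07 and -0.14. In limma the dKO effect of Col1a1 was 1.07 (SE 0.34, adjusted p = 0.244).

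Col13a1, a transmembrane collagen of cell adhesion and the neuromuscular junction, read 136 and 149 in the control, 213 and 343 in the dKO and 204 and 277 with RA. The 2 control arrays were the lowest of the 6. Col13a1 was higher in the dKO by 0.65 and 1.20. Col24a1, a minor fibril-forming collagen, was above its floor only on the distal dKO array, at 133, and was at least 1.16 higher on the log2 scale there than in the distal control. Its other signals were 22.1 to 67.1. Col23a1 lay just under the mark in the distal part, at 0.996, and at 0.44 in the proximal part.

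Col14a1, a fibril-associated collagen of tendon and skin, was above the floor on both dKO arrays and on no other. Its signals were 41.5 and 32.7 in the control, 92.4 and 104 in the dKO and 42.7 and 51.6 with RA, so the dKO was higher by at least 0.53 and 0.80 on the log2 scale. A separate probe set, whose mean log2 signal was lower, read 30.8 and 23.4, 202 and 269.9, and 29.2 and 13.7. By that probe set Col14a1 was at least 1.66 and 2.18 higher in the dKO. Which probe set stands for Col14a1 thus decides whether it passes 2-fold.

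Of the 21 members above the floor on all arrays, 11 were higher and 4 lower than control in both parts of the dKO, against 30.1% and 33.7% of genes. Dividing each array by its median shifted the median of all genes by -0.19 proximally and -0.36 distally, and then 5 members were higher in both parts and 9 lower. The 5 were Col1a1, Col5a1, Col13a1, Col16a1 and Col23a1. Quantile normalization gave 11 and 4. With the signals as deposited, the members' median difference was 0.25 proximally and 0.07 distally, beside -0.00 and -0.02 over the 10208 genes. At an unadjusted p under 0.05 in limma, 7 members were higher in the dKO and 0 lower, beside 10.7% and 0.963% of all genes. The 7 include Col14a1 and Col24a1, which passed the floor on dKO arrays alone. These genes entered the fit only through the dKO and could not have been lower there.

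Of 9 cartilage markers 6 could be tested, since Matn1, Comp and Cnmd were below the floor on every array, and 1 of the 6 rose in the dKO. This was Acan, the cartilage proteoglycan, which rose by 2.21 (SE 0.21, limma adjusted p = 0.00757), from 40.3 and 23.4 in the control to 249 and 327. Both control signals of Acan were under their floors of 64.0 and 59.5 and entered the fit as floor values. The 2.21 is therefore a lower limit, and its SE does not measure how alike the control signals were. The summed signal of the list was 3332 and 2869 in the control and 4399 and 5368 in the dKO. The cartilage collagen Col9a1, at 1038 and 885 in the control, read 938 and 662 in the dKO. The 10 endothelial markers summed to 3749 and 2715 in the control and 5305 and 3801 in the dKO. The muscle precursor markers summed to 4000 and 1243 in the control and 5686 and 2464 in the dKO. Distally 3 of the 4 compared were 2-fold higher, against 5.32% of all genes. Of the mesothelium markers, Msln, Lrrn4 and Upk1b were below the floor on all arrays. The list summed to 694 and 702 in the control and 1282 and 1389 in the dKO. In each part 2 of 3 were 2-fold higher, against 4.07% of all genes proximally and 5.32% distally. None of the endothelial, muscle precursor or mesothelium markers passed limma for the dKO. Meox2 and Pax9 of the somite and body wall markers passed it, 1 rising and 1 falling, and Nefl of the neural markers rose. Over all genes, limma called 2.21% as risen and 0.115% as fallen. The part of these lists in the collagen differences was not tested.

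**Figure D3:**
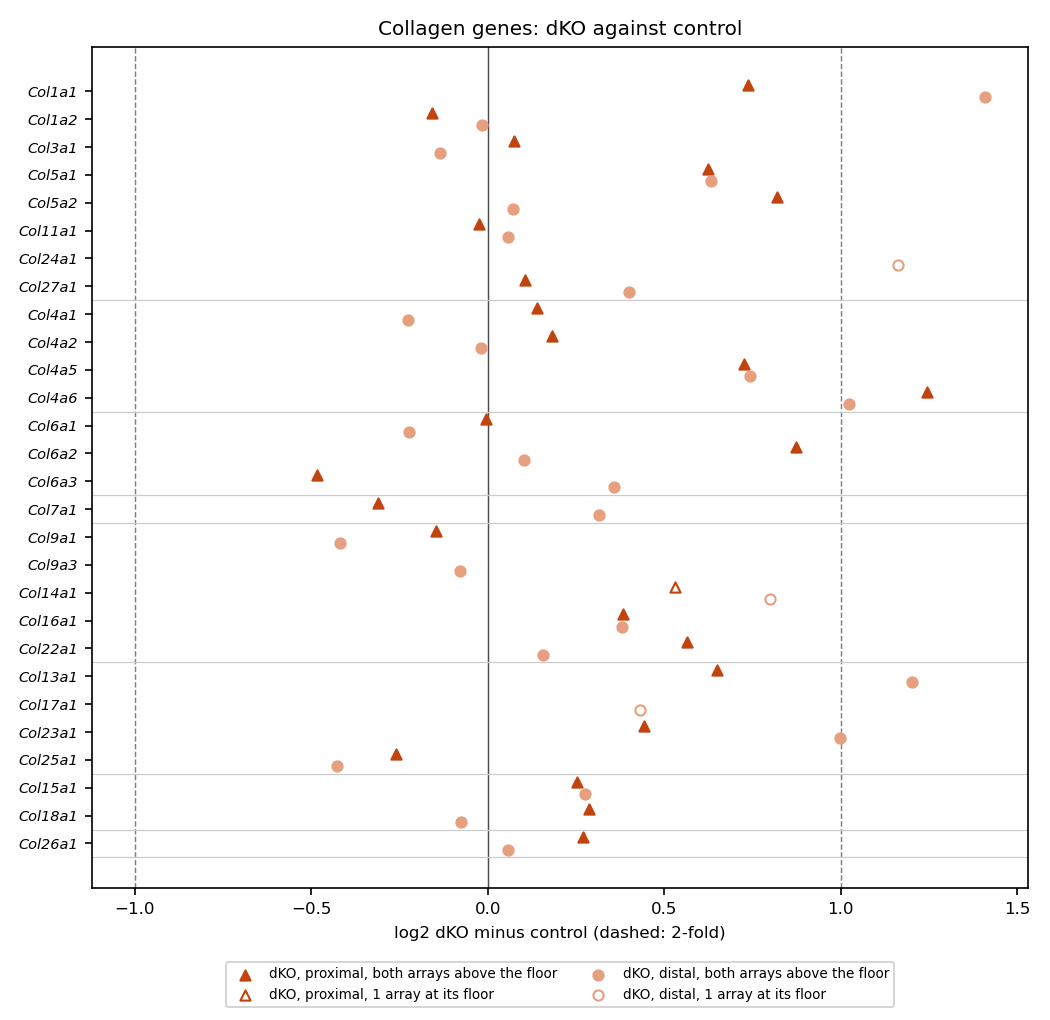
Log2 difference of dKO minus control for each collagen gene, with triangles for the proximal and circles for the distal part, dashed lines at 2-fold and open symbols where 1 array is at its floor. Col4a6 lies past 2-fold in both parts, at 1.24 and 1.02, and Col1a1, Col13a1 and Col24a1 in the distal part only.

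RA was compared with the control in each part to ask which collagen genes differ after exposure. Both this comparison and that of the dKO use the same 2 control arrays. In the proximal part 3 of 24 members were 2-fold or more higher, Col5a2, Col18a1 and Col23a1, and Col6a3 was as much lower. Over all genes, 3.69% were as much higher and 6.8% as much lower. In the distal part Col23a1 was higher and Col1a1 lower, each 1 of 25, against 2.16% and 2.13% of all genes. The limma model called no collagen gene for RA in either direction, against 0.305% and 0.239% of all genes; at an unadjusted p under 0.05, 3 members were higher and 6 lower, beside 6.9% and 9.84%. Without the proximal RA array limma called Col23a1 and Col25a1 as higher and Col1a1 and Col3a1 as lower, against 3.33% and 4.82% of all genes in that fit. RA is then 1 array, whose spread is taken to be that of the other groups.

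Col23a1 was the only member past 2-fold in both parts. It was 1.48 higher proximally and 1.08 higher distally, with limma's effect at 1.28 (SE 0.26, adjusted p = 0.0958). Its 2 other probe sets gave 1.17 and 1.63 proximally and 1.42 and 1.61 distally. Col13a1, another transmembrane collagen, was higher by 0.59 and 0.90, and Col25a1 differed by -0.13 and 0.69.

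Col5a2, the second chain of type V collagen, read 569 and 627 in the control, 1005 and 659 in the dKO and 1366 and 947 with RA. The proximal RA array was the highest of the 6. Col5a2 was 1.26 higher with RA proximally and 0.60 higher distally, while a separate probe set gave 0.42 and 0.45. Col5a1, its partner chain, read 421 and 352 in the control, 648 and 545 in the dKO and 804 and 289 with RA. Col5a1 was 0.94 higher proximally and differed by -0.28 distally. Its 2 other probe sets gave 0.15 and 0.35 proximally and -0.01 and -0.45 distally.

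Col18a1 read 2234 and 2732 in the control, 2724 and 2592 in the dKO and 4856 and 2507 with RA. The proximal RA array stood above the other 5, which lay between 2234 and 2732. Col18a1 was thus 1.12 higher proximally and differed by -0.12 distally, and a separate probe set gave 0.86 and -0.29. Col4a1 and Col4a2 were likewise highest on the proximal RA array, by 0.59 and 0.53 over control, and differed by -0.14 and -0.06 distally. A separate probe set of Col4a1 gave 0.06 and -0.23. The endothelial markers summed to 5004 on the proximal RA array and 3749 in the proximal control, and all 10 were above the floor on both. Their part in these differences was not tested.

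Type VI collagen genes were lower with RA in both parts. Col6a2 read 242 and 378 in the control, 444 and 406 in the dKO and 128 and 209.6 with RA. Both RA arrays were below the other 4. On the log2 scale Col6a2 differed from control by -0.92 and -0.85 and Col6a1 by -0.41 and -0.73. Col6a3 read 147 and 112 in the control, 105 and 143 in the dKO and 56.4 and 46.9 with RA, both under the floor. Its log2 differences were -1.23 or below proximally and -0.71 or below distally. None of the 3 passed limma, where the RA effects were -0.57 (SE 0.23, adjusted p = 0.291) for Col6a1, -0.88 (SE 0.29, adjusted p = 0.246) for Col6a2 and -0.97 (SE 0.24, adjusted p = 0.159) for Col6a3.

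Among the fibril-forming genes, Col1a1 differed with RA by -1.07 distally and -0.16 proximally. Its separate probe set gave -1.15 and 0.45. Col3a1 differed by -0.91 and -0.16, Col27a1 by -0.63 and -0.36, and Col1a2 by -0.30 and -0.40, distal part first. In the same order, separate probe sets gave -0.79 and -0.97 for Col3a1, -0.16 and -0.42 for Col27a1, and -0.29 and -0.10 for Col1a2. For Col3a1 the probe sets thus differ on whether the proximal part was lower to a like extent. The X-linked Col4a5 differed by -0.78 proximally and by -0.61 or below distally. A separate Col4a5 probe set passed the floor on the proximal RA array only, at 75.1, and was at least 0.23 higher there than in the control. The direction of Col4a5 with RA proximally thus depends on the probe set. X-linked genes as a whole had medians of -0.15 and -0.08, beside 0.01 and -0.04 for all genes, on arrays that also differ in Xist.

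Of the 21 members above the floor on all arrays, 6 were higher and 9 lower with RA in both parts, against 26% and 31.9% of genes. The same 9 were lower when arrays were divided by their medians or quantile normalized, while the count higher was 4 and 5. The members' median was 0.01 proximally and -0.12 distally, beside 0.00 and -0.05 over all genes above the floor on all arrays. Of the marker lists, limma called Meox2 alone for RA, a somite and body wall marker that fell, against 0.239% of all genes. The limb mesenchyme markers summed to 14677 and 19114 with RA and to 25323 and 22860 in the control. Their part in the collagen differences was not tested.

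**Figure D4:**
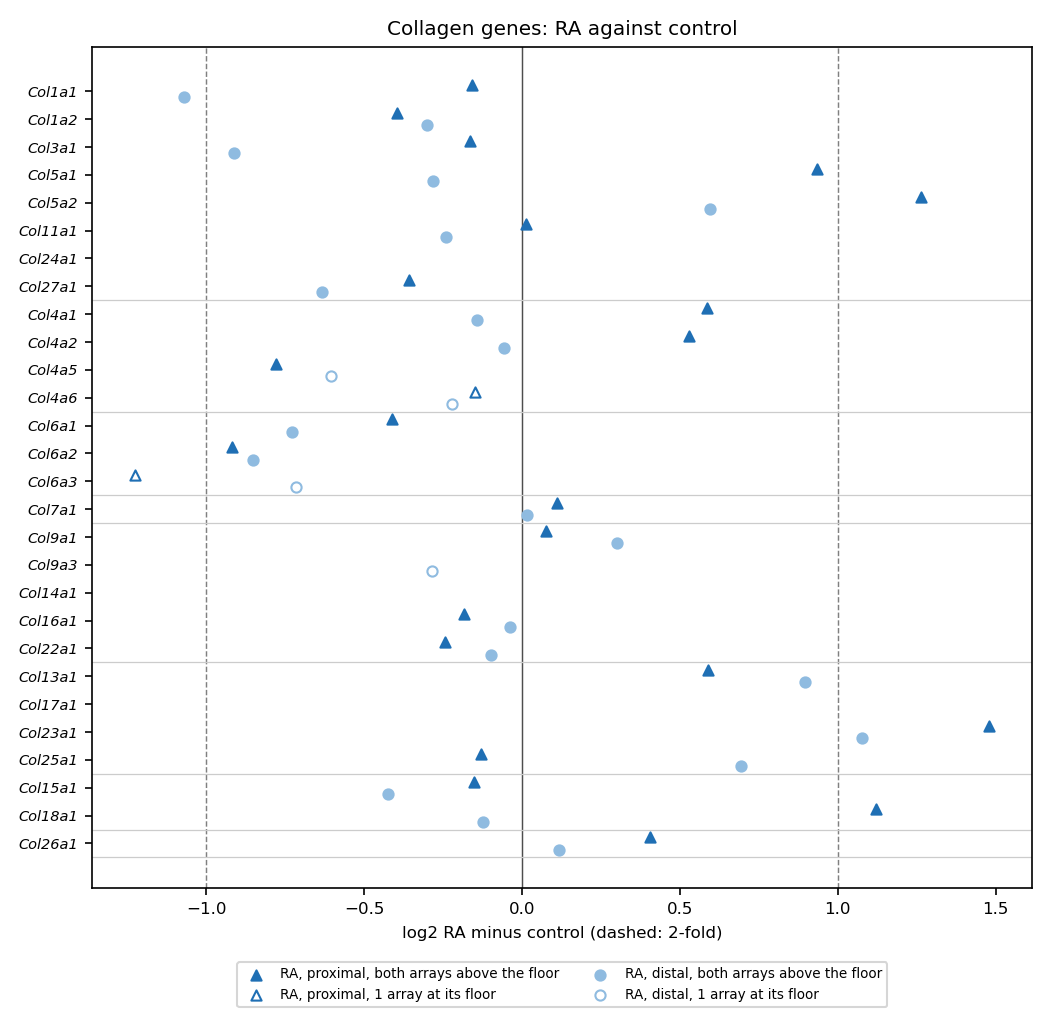
Log2 difference of RA minus control for each collagen gene, with triangles for the proximal and circles for the distal part, dashed lines at 2-fold and open symbols where 1 array is at its floor. Col23a1 lies right of the 2-fold line in both parts, at 1.48 and 1.08, Col6a1, Col6a2 and Col6a3 lie left of 0 in both, and Col5a1 and Col18a1 have opposite signs in the 2 parts.

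Col7a1, the anchoring fibril collagen that fastens epidermis to dermis, read 96.9 and 111 in the control, 78.0 and 138 in the dKO and 105 and 112 with RA. Col11a1, Col15a1, Col16a1 and Col22a1 were above the floor on all arrays, and their differences from control lay between -0.42 and 0.56 in both conditions and parts by the probe sets used. A separate Col11a1 probe set, above the floor on all arrays, gave -1.13 with RA proximally, where the probe set used gave 0.01. Col9a3 passed the floor on both the distal control and distal dKO arrays, at 83.1 and 78.6. Col17a1, a hemidesmosome collagen of basal keratinocytes, passed it on the distal dKO array only, at 80.3, and read 53.0 in the distal control against 17.1 in the proximal one.

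Of the members, 10 could be read by more than 1 probe set that was above the floor on all arrays. In the control their probe sets had the same sign of position difference in 10 of 10, in the dKO and RA pairs in 7 of 10 each. For the dKO the sign was shared in 8 proximally and 9 distally, and for RA likewise in 8 and 9. Col1a1 kept its 2-fold mark by all its probe sets in the control and RA pairs, in the distal dKO and in the distal RA comparison. Col23a1 kept it with RA in both parts. The marks of Col3a1, Col5a1 and Col23a1 between parts in the RA pair, and those of Col5a2 and Col18a1 with RA proximally, were not reached by every probe set.

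Pairs of collagen genes that are neighbours in the RefSeq order were read side by side. Col3a1 and Col5a2, adjacent on chromosome 1, differed with RA by -0.16 and 1.26 proximally and by -0.91 and 0.60 distally. Their separate probe sets gave -0.97 and 0.42 proximally and -0.79 and 0.45 distally. Col6a2 and Col6a1 on chromosome 10 were both lower with RA. By the probe sets used, Col4a6 and Col4a5 on X were both higher in the dKO in both parts, and Col4a1 and Col4a2 were both higher with RA proximally. Of the neighbours Col9a1 and Col19a1, only Col9a1 was above the floor.

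The genes that make, cut and bind collagen were followed as 6 lists, 79 genes on the array of which 60 were above the floor on an array. In the dKO 2 of the 60 rose in limma, Lox and Postn, and 0 fell, against 2.21% and 0.115% of all genes. For RA and for position none of the 60 passed in either direction. Over all genes, limma called 0.305% as risen and 0.239% as fallen for RA, and 0% in each direction for position. Lox, the lysyl oxidase that starts cross-links in collagen and elastin, read 136 and 45.2 in the control, 691 and 375 in the dKO and 121 and 39.2 with RA. Both dKO arrays stood above the other 4. Lox was 2.35 higher proximally and at least 2.65 higher distally, and rose by 2.50 (SE 0.22, limma adjusted p = 0.00625). Postn, or periostin, a matricellular protein that binds type I collagen, read 38.5 and 32.6 in the control, 386 and 401 in the dKO and 145 and 16.2 with RA. It was at least 2.59 and 2.75 higher in the dKO and rose by 2.67 (SE 0.31, limma adjusted p = 0.0123). Both control signals of Postn and the distal control signal of Lox were under their floors and entered the fit as floor values. For Postn the SE and adjusted p thus do not measure how alike the control signals were.

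The 17 detected genes of collagen folding in the endoplasmic reticulum, among them the prolyl hydroxylases, had medians of 0.06 and 0.11 in the dKO and 0.10 and -0.20 with RA. None of the 17 was 2-fold from control in the dKO, and 1 was with RA, P4ha2 at -1.07 distally. Over all genes, 4.07% were as much higher and 0.363% as much lower in the dKO proximally, and 5.32% and 0.524% distally. With RA distally, 2.13% of all genes were as much lower. The 7 processing and cross-linking genes had medians of 0.39 and 0.41 in the dKO, with 3 of 7 at 2-fold or more higher proximally and 1 distally, against 4.07% and 5.32% of all genes. The 9 breakdown genes and inhibitors included Mmp14, the membrane-bound collagenase, at 525 and 417 in the control, 497 and 438 in the dKO and 205 and 196 with RA. Both RA arrays were the lowest for Mmp14, which differed from control by -1.36 and -1.09, and limma's adjusted p was 0.0851. The list also holds Fap, a serine protease of activated fibroblasts, which was higher proximally by 3.28, 2.61 and 4.64 in the 3 pairs.

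Collagen receptors were represented by 4 detected genes, none of them 2-fold from control in the dKO. Over all genes, 4.07% were as much higher and 0.363% as much lower in the dKO proximally, and 5.32% and 0.524% distally. With RA 1 of the 4 was 2-fold lower proximally and none distally, against 6.8% and 2.13% of all genes. The 9 fibril-binding matrix genes, Postn among them, had dKO medians of 0.17 and -0.27. The 14 other basement membrane genes had dKO medians of 0.25 and 0.07, with none at 2-fold, and RA medians of 0.22 and 0.22. With RA 2 of the 14 were 2-fold higher and 1 lower proximally, against 3.69% and 6.8% of all genes. Distally 0 were higher and 1 lower, against 2.16% and 2.13%. Frem2, a component of the basement membrane under the ectoderm, differed with RA by -1.41 or below proximally and by -1.12 distally, with a limma adjusted p of 0.0866.

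**Figure D5:**
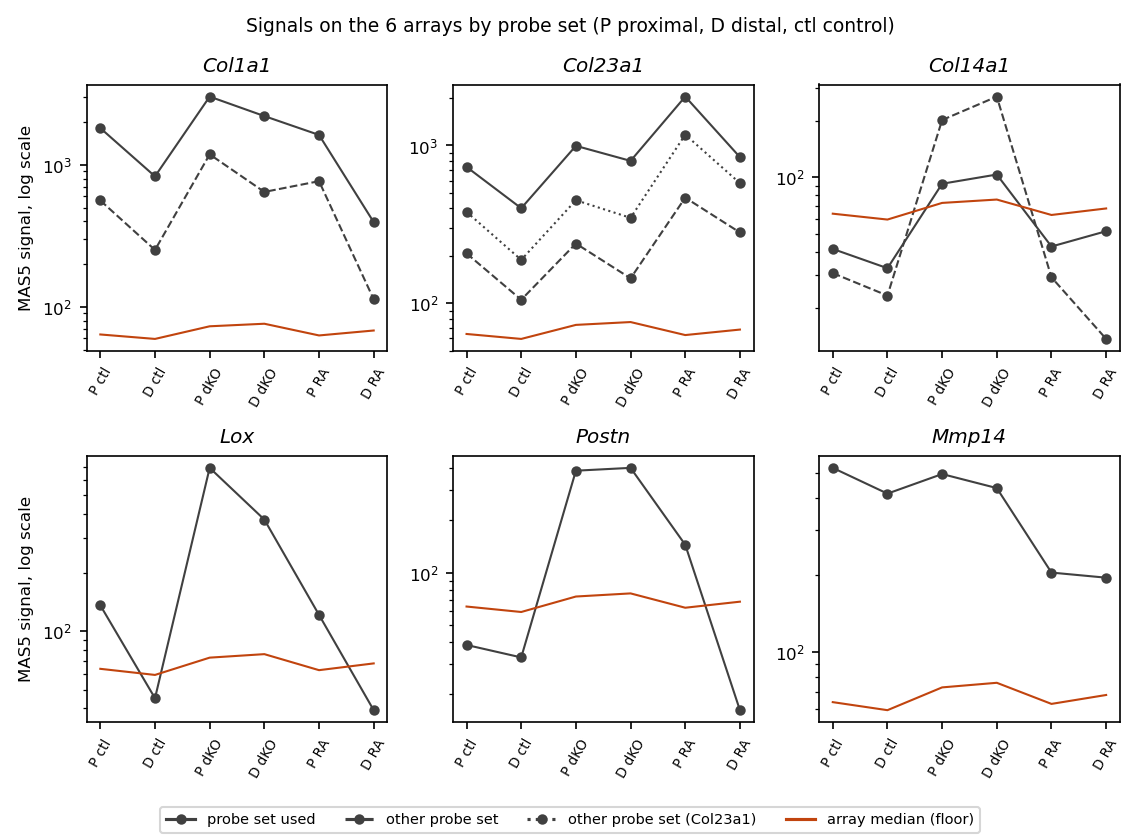
MAS5 signals on a log axis for the 6 arrays, by probe set, for Col1a1, Col23a1, Col14a1, Lox, Postn and Mmp14; lines join the points of 1 probe set and mark no order, and the red line is each array's floor. The 3 probe sets of Col23a1 are all highest on the proximal RA array, both detected probe sets of Col14a1 pass the floor on the dKO arrays alone, and Mmp14 is lowest on the RA arrays, at 205 and 196.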

How the data were processed

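Per the labels, RNeasy Micro kits gave the total RNA, from which biotin-labelled cRNA was transcribed. The authors deposited signal intensity on a linear scale, made with MAS5 per the submitters' processing notes. The trimmed mean of each array is 500 after 2% of probe sets is left out at each end. The sources used here do not name a MAS5 version. The number of arrays, 1 a group, limits the precision.

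Of 45101 probe sets, 34958 have 1 gene symbol in the platform annotation, 932 several and 9211 none. For 34754 of the probe sets with 1 symbol the gene ID was in RefSeq, and no member's symbol changed. Where a signal was under its array's median it was set to it, and a gene entered a comparison when at least 1 array was above. A negative value given as "or below", or a positive one given as "at least", ends at a floor. Calls at 2-fold were made between single arrays, and limma 3.58.1 in R 4.3.3 (trended prior variance with 4.64 degrees of freedom) gave Benjamini-Hochberg adjusted p-values. Its residual is the disagreement between pairs and is not a replicate test. The fit was also run on simulated data with equal noise for all genes, no floor on the noise and no difference between parts. That setting is simpler than these arrays and does not test the results given here.

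Members and gene lists were chosen with earlier results of these data known. Values in every array are given for members at 2-fold or called by limma, for Col1a1 and for the member of each class with the highest mean log2 signal, which sets no order of levels; P4ha2, Col4a5, Col14a1, Col17a1, Col25a1 and some others were described after their values were seen. Partner genes are named when at 2-fold in both parts or all pairs, or called. Alternatives were another scaling, floor, filter and probe set choice, and fits without a pair of arrays. The next brightest probe set and the fit without the proximal RA array were added after seeing the data.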

Additional observations from a re-analysis of the deposited data

Results flagged for a closer look

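Col5a1 and Col18a1 differed from control in opposite directions in the proximal and the distal RA comparison, by more than 2-fold between the parts. Col5a1, a type V collagen chain, was 0.94 higher proximally and differed by -0.28 distally. Col18a1, the multiplexin that gives rise to endostatin, was 1.12 higher proximally and differed by -0.12 distally. The difference between parts was not tested, because each part has 1 array per condition. The highest signal of both genes, 804 for Col5a1 and 4856 for Col18a1, was on the proximal RA array, which correlated least with the other arrays.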

How the results depend on the processing

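No paired analysis was possible because the labels give no replicate numbers to use as a block; through its terms for condition and part, the limma fit already sets the 2 parts of each condition against each other. No member value at 2-fold, nor the limma call of Col4a6, changed sign under the alternatives run for it. The balance of counts did turn in places: members with the same sign in both parts of the dKO went from 11 higher and 4 lower to 5 and 9 once arrays were divided by their medians, and RA proximally went from 3 higher and 1 lower to 1 and 2 with the next brightest probe set. Of the counts, 100 stayed within 1.5 times and 42 moved. Most of the 100 were counts of 0 that stayed 0, so they say little about how stable the other counts are. A count of the control position comparison went from 1 to 2 higher with the next brightest probe set (Col1a1 and Col23a1) and from 0 to 2 lower with a floor at the 25th percentile. That floor also gave 2 lower for position in the dKO and 1 lower in the RA pair, where the next brightest probe set gave 1 too. The proximal dKO count of 1 higher became 3 at the 25th percentile floor, 0 with no floor (log2 of signal + 50), 0 with the mean of all probe sets and 2 with the next brightest (Col1a1 and Col14a1). The distal dKO count of 4 became 1 after division by the array median (Col1a1), 2 after quantile normalization (Col1a1 and Col13a1) and 2 with no floor (Col1a1 and Col24a1). For RA proximally, the 3 higher became 1 with the mean of all probe sets and 1 with the next brightest, Col23a1 both times. The 1 lower became 3 at the 25th percentile floor, 0 with no floor and 2 with the next brightest. For RA distally, the 1 higher became 0 after division by the median, 2 at the 25th percentile floor and 0 with no floor, and the 1 lower became 3, 4 and 0 in that order.

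In limma the 1 member risen in the dKO became 0 after division by the median, quantile normalization, the 25th percentile floor, no floor, and a filter of at least 3 arrays. It became 2 with the mean of all probe sets (Col4a6 and Col14a1), 21 with no filter, which includes members at the floor on all arrays and calls 41.5% of all genes as risen, and 6 both without the RA pair and without the proximal RA array; for the dKO and for position these are in effect 1 fit, since the RA term then takes up the lone RA array. The 6 were Col1a1, Col4a5, Col4a6, Col5a1, Col13a1 and Col23a1. The RA counts went from 0 to 2 higher and 3 lower with no filter, to 1 higher without the dKO pair (Col23a1), and to 2 higher (Col23a1 and Col25a1) and 2 lower (Col1a1 and Col3a1) without the proximal RA array. For position the 0 higher became 4 with no filter, 4 without the RA pair (Col1a1, Col1a2, Col3a1 and Col25a1), 1 without the dKO pair (Col1a1, beside 0.973% of all genes), 2 without the control pair (Col1a1 and Col3a1) and 4 without the proximal RA array. Fits without arrays leave 1 residual degree of freedom and rest on the variance pooled over genes. In the fit with no filter, members at the floor on every array hold only the array medians. Each such member therefore had the same dKO effect, 0.27, set by floors of 73.0 and 76.1 in the dKO and 64.0 and 59.5 in the control. The cause of the other changes was not tested.

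Dividing arrays by their medians shifted the median of all genes by -0.10 for position in the control, 0.12 for position with RA, -0.19 and -0.36 for the dKO and -0.20 for RA distally. The share of higher among all 2-fold calls then went from 49.2% to 38.75%, 41.7% to 55.6% and 41.7% to 57.6% for position in control, dKO and RA, from 91.0% to 62.6% for the distal dKO and from 50.3% to 27.3% for distal RA. Signals near the floor, as for Col4a6, Col14a1, Col17a1 and Col24a1, limit what these arrays resolve.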
